A study of Saccharomyces cerevisiae with 8 samples.

Results

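The genes described here encode the subunits of RNA polymerases I, II and III and the general transcription factors that bring each polymerase to its promoters in budding yeast, Saccharomyces cerevisiae. They were taken by gene symbol, from the RPA, RPB, RPC, RPO, RRN, TFA, TFB, TFC, TOA, TAF and SSL families and a short list of further factors such as DST1, BRF1, BDP1, KIN28, BUR6, TFG1, TFG2 and RET1. The rule itself uses no expression value, though it was set with earlier results of these data known. Of 84 genes in the RefSeq gene table that the rule matches, 52 had at least 1 array spot carrying their symbol alone, on 58 spots in all. The array held 6216 spots, or 5999 features once spots of the same gene were averaged, of which 3127 were named genes. The 52 genes comprised 6 subunits and 6 factors of polymerase I, 5 subunits shared between polymerases, 5 subunits and 17 factors of polymerase II, and 9 subunits and 4 factors of polymerase III. The other 32, among them the TATA-binding protein gene SPT15, the TFIIB gene SUA7, RPA135, RPC40, RPO26, RPB3, RPB7, RPC82, MAF1 and most TFIIH genes, are not analysed here.

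The study compared wild-type cells of strain YPH500 with cells lacking SUB1 (sub1Δ), collected from exponential growth in rich medium at time 0 and again 1 h after adding 1 µg/µl, as the labels have it, of 4-nitroquinoline 1-oxide. This chemical, 4NQO, damages DNA by forming bulky adducts. The 8 spotted arrays each carried RNA of both strains, with 4 arrays for untreated cells and 4 for 4NQO-treated cells, in each case 2 independent experiments hybridised once in each dye orientation. All values are log2 ratios of sub1Δ over wild type, and n = 2 experiments per condition, each the mean of its dye swap. No untreated cells were sampled at 1 h, so 4NQO and the added hour cannot be told apart, and no array set treated against untreated cells of 1 strain. The RNA came from whole cultures, and a ratio spread over all cells cannot be told apart from one carried by some of them. SUB1 itself has no spot with its symbol alone, so these values do not show the deletion, and the direction of every ratio rests on the dye labels.

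RNA polymerase I makes the large ribosomal RNA precursor, polymerase II makes messenger RNA, and polymerase III makes transfer RNA, 5S ribosomal RNA and other small RNAs. Each enzyme has a catalytic core of its own plus subunits held in common, and each depends on separate initiation factors: the Rrn proteins for polymerase I, TFIIA to TFIIH with TFIID for polymerase II, and TFIIIB and TFIIIC for polymerase III. Sub1, the yeast relative of the human coactivator PC4, has been found at genes of polymerases II and III.

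The arrays differed in how much they measured. Between 266 and 1659 of the 6216 spots had no value on 7 of the arrays, and 3234 had none on the array of 4NQO experiment 2 with the dyes exchanged. Between 40 and 51 of the 52 genes had a value on those 7 arrays, against 25 on the last one. The array medians of the turned ratios lay between -0.19 and 0.01 untreated and between -0.64 and -0.14 with 4NQO, so with 4NQO the typical feature read lower in sub1Δ. The 2 arrays of untreated experiment 2 had a Pearson correlation of -0.195 and a Spearman correlation of 0.0522 across features. The other 3 dye swaps had Pearson correlations of 0.2 to 0.331. Over features, the means of the 2 untreated experiments correlated with r = 0.145 and those of the 2 4NQO experiments with r = 0.506, and features are not independent replicates.

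In untreated cells none of the machinery genes differed between the strains past the threshold. Testing needed a dye-swap mean from both experiments of a condition, which 32 of the 52 genes had, and limma called 0 of them at an adjusted p below 0.05. The same fit called 1 of 3457 features, or 0.0289%. At an unadjusted p below 0.05 it gave 1 machinery gene, TFC1, and 198 features. The median log2 ratio of the 32 genes was 0.00, beside 0.02 for all features, and 16 of the 32 lay above 0. Ratios had the same sign on all 4 arrays for 5 of the 32 genes, against 676 features, or 19.6%. These were RPB11, above 0, and TAF1, TAF11, TFA2 and TFC1, below 0.

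**Figure D1:**
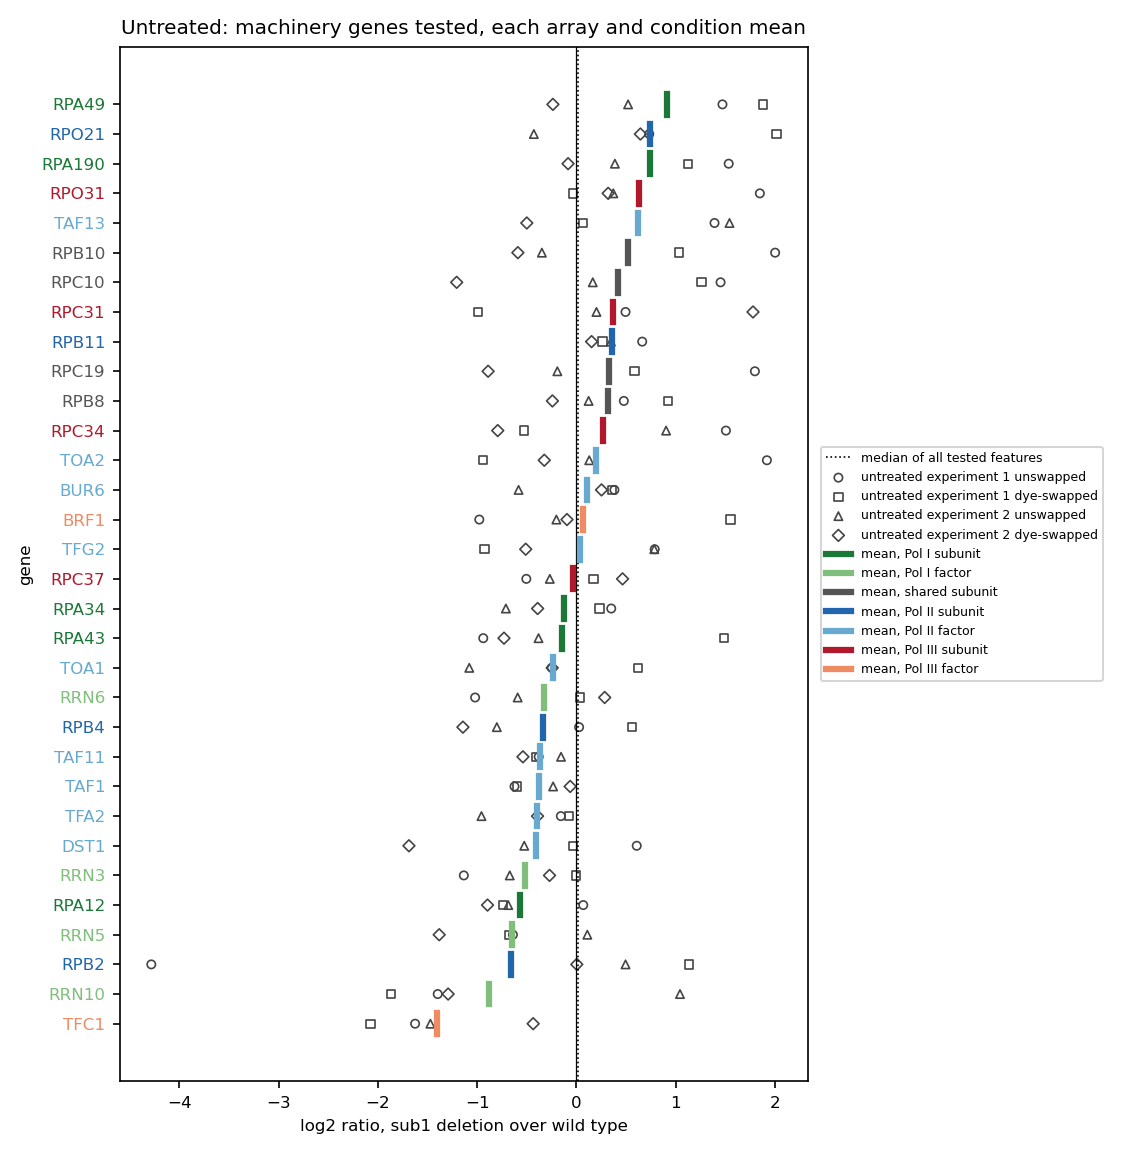
Log2 ratio of sub1Δ over wild type in untreated cells for the 32 machinery genes tested, 1 row per gene. Open symbols are the 4 arrays, coloured bars the mean of the 2 dye-swap means, and the dotted line the median of all 3457 features; the bars run from -1.40 for TFC1 to 0.91 for RPA49, and single arrays of 1 gene spread over as much as RPB2 does, from -4.28 to 1.14.

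After 4NQO 3 machinery genes differed between the strains. RPA190, the largest subunit of polymerase I, was 3.83-fold higher in sub1Δ, while TFC1, a subunit of the polymerase III factor TFIIIC, was 4.05-fold lower and TAF1, a scaffold subunit of TFIID, 3.84-fold lower. Those 3 were called among 20 tested, or 15%, beside 428 of 2194 features, or 19.5%. The single gene called higher compares with 199 features (9.07%), and the 2 called lower with 229 features (10.4%). The share of machinery genes called was thus near that of all features. The median log2 ratio of the 20 genes was -0.41, beside -0.56 for all features, and 11 of the 20 lay above the overall median. Ratios had the same sign on all 4 arrays for 6 of the 20 genes, against 846 features, or 38.6%: RPA190 was above 0, and TFC1, TAF1, RPC53, RRN5 and RPB8 were below 0. With every array's median set to 0, RPA190 alone was called (log2 ratio 2.39, adjusted p 0.0346), and the calls over all features went from 199 higher and 229 lower to 195 higher and 17 lower. The fit with the treated condition's spread alone called none of the 3 genes, and neither did the fit without the sparse dye-swapped array of experiment 2 (RPA190 2.35, adjusted p 0.134; TFC1 -2.60, adjusted p 0.131; TAF1 -1.64, adjusted p 0.155).

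**Figure D2:**
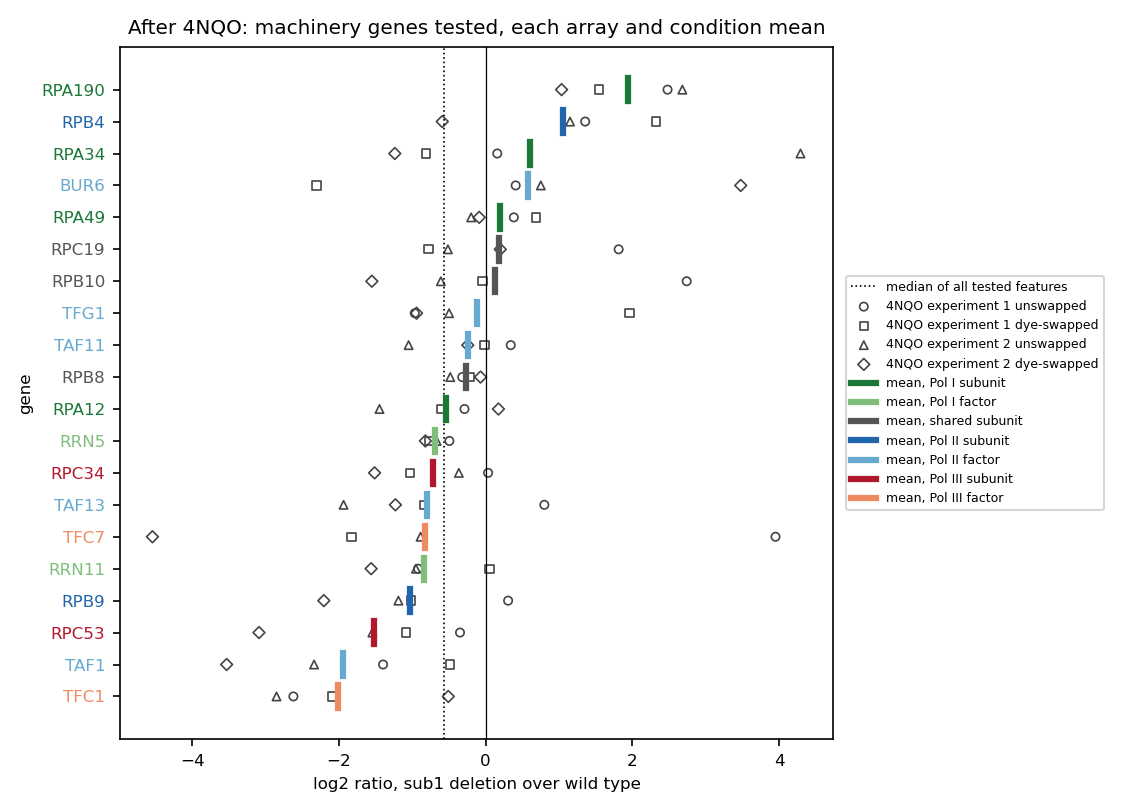
Log2 ratio of sub1Δ over wild type after 4NQO for the 20 machinery genes tested, 1 row per gene. Open symbols are the 4 arrays, coloured bars the mean of the 2 dye-swap means, and the dotted line the median of all 2194 features at -0.56; all 4 arrays of RPA190 lie above 0 and all 4 of TFC1 and TAF1 below, while TFC7 spans -4.54 to 3.95.

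The difference of the strain ratio between the conditions, 4NQO minus untreated, could be tested for the 15 machinery genes with a value on all 8 arrays. It was called by limma for none of them and for 0 of 1654 features (0%). At an unadjusted p below 0.05 it gave 0 machinery genes and 226 features. The median difference over the 15 genes was -0.15, beside -0.25 over all features. The lowest difference was -1.56 for TAF1 (95% interval -3.34 to 0.22) and the highest 1.40 for RPB4 (95% interval -0.38 to 3.18). A call with 4NQO and none in untreated cells therefore does not show that the strain ratio of a gene changed with treatment.

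**Figure D3:**
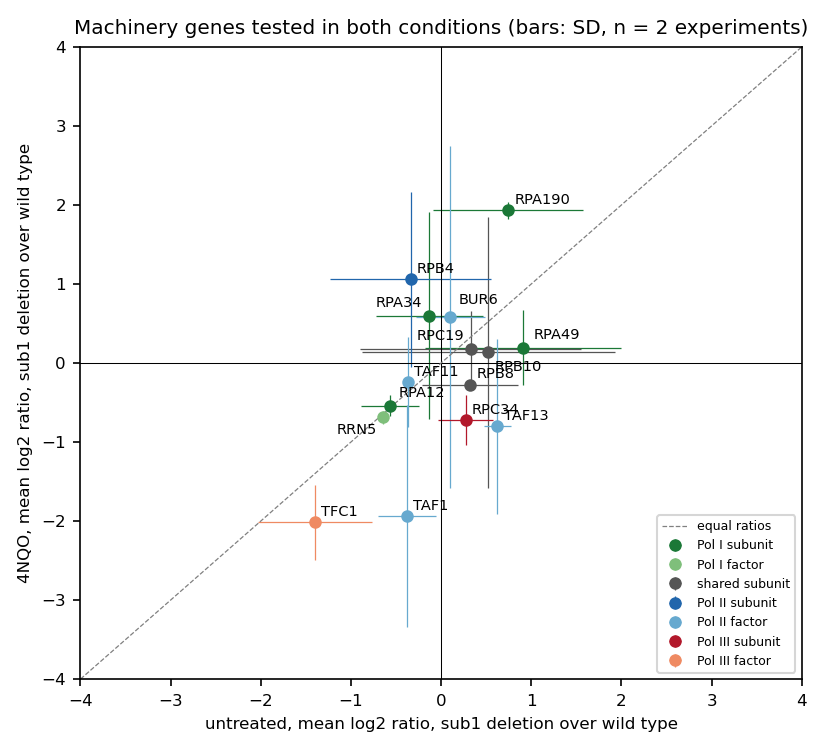
Mean log2 ratio of sub1Δ over wild type in untreated cells (horizontal axis) against the same after 4NQO (vertical axis) for the 15 machinery genes tested in both, coloured by class. Bars are the SD over 2 experiments and the dashed line marks equal ratios; RPA190 sits above the line, TAF1 below it, TFC1 is low on both axes, and most bars cross 0 or the line.

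Among the subunits of polymerase I, RPA190 carries the active site together with RPA135. In untreated cells its log2 ratio was 1.54 and 1.12 on the unswapped and dye-swapped arrays of experiment 1, and 0.39 and -0.08 on those of experiment 2. After 4NQO it was 2.48 and 1.54 in experiment 1, and 2.68 and 1.04 in experiment 2. Every 4NQO array read higher in sub1Δ, and the lowest 4NQO array lay within the range of the untreated ones. The 4NQO mean was 1.94 ± 0.11 (SD, n = 2; 95% interval 0.74 to 3.13, adjusted p 0.0282), at percentile 93.0 of the features tested. The untreated mean was 0.74 ± 0.83 (SD, n = 2; adjusted p 0.943). The difference was 1.19, with a 95% interval of -0.50 to 2.88 and an adjusted p of 0.531. If the submitters had already turned the dye-swapped arrays before deposit, which the sources used here do not say, the 4NQO value would be 0.65 with an adjusted p of 0.389. The call was lost with the spread of the 4NQO condition alone (adjusted p 0.0813), the same fit as with either untreated experiment left out. With only 4NQO experiment 1 the log2 ratio was 2.01 and with only experiment 2 it was 1.86, each a single value without spread.

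RPA49 and RPA34 encode the heterodimer of polymerase I that resembles TFIIF. As turned here, RPA49 had the highest untreated mean of the machinery genes tested, with 1.47, 1.89, 0.52 and -0.24 on the 4 arrays in the order used above, and a mean of 0.91 ± 1.09 (SD, n = 2) that did not pass the test. With dye-swapped arrays taken as already turned that mean was 0.087, below TAF13 at 0.84. After 4NQO its arrays read 0.39, 0.68, -0.20 and -0.09, and the mean was 0.20 ± 0.48. Its experiments disagreed in sign with 4NQO, and the untreated excess came from experiment 1. RPA34 read 0.35, 0.23, -0.71 and -0.39 untreated and 0.16, -0.82, 4.29 and -1.24 with 4NQO, so its 4NQO mean of 0.60 ± 1.31 rests on a single array. The partners of this dimer therefore had no common direction beyond their spread. RPA12, a subunit involved in transcript cleavage, was the lowest of these subunits among the untreated genes tested, with 0.07, -0.74, -0.69 and -0.90 and a mean of -0.56 ± 0.32. With 4NQO it read -0.29, -0.60, -1.45 and 0.17, with a mean of -0.54 ± 0.13, close to the median of all features. The stalk gene RPA43 ranged from -0.94 to 1.49 untreated and had values between -0.42 and 0.34 on 3 4NQO arrays. Its stalk partner RPA14, with 3 arrays in each condition, lay between -0.89 and 0.11 untreated and between -2.14 and -0.55 with 4NQO.

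The Rrn factors recruit polymerase I to the ribosomal DNA promoter. All 4 that were tested untreated had means below 0, with a median of -0.58, and both tested with 4NQO lay below 0 and below the overall median, but none passed the test. RRN10, of the upstream activation factor, had the lowest untreated mean of these, with -1.40, -1.86, 1.04 and -1.29 on the 4 arrays and a mean of -0.88 ± 1.07. Its 3 4NQO arrays read -1.36, -0.85 and -1.33. RRN5, its partner in the upstream activation factor, read -0.64, -0.67, 0.11 and -1.38 untreated and -0.49, -0.77, -0.67 and -0.82 with 4NQO. Its means of -0.65 ± 0.01 and -0.69 ± 0.08 were nearly equal in the 2 conditions, with adjusted p values of 0.943 and 0.361. Ratios of RRN5 were below 0 on 7 of the 8 arrays, and the 4NQO mean was close to the overall median of -0.56. The core factor gene RRN11 read -1.62, -0.19 and -1.10 on 3 untreated arrays and -0.92, 0.05, -0.95 and -1.56 with 4NQO (mean -0.85 ± 0.58, adjusted p 0.279). The other core factor genes, RRN6 and RRN7, ranged from -1.61 to 0.43 over both conditions. RRN3, whose product bridges the polymerase to the core factor, ranged from -1.13 to 1.22. All 6 Rrn genes were below 0 on the unswapped array of experiment 1 in each condition, with medians of -1.08 untreated and -0.89 with 4NQO. On its dye-swapped partner 4 of 6 were below 0 in each condition, with medians of -0.32 and -0.23. The medians were thus nearer 0 with the dyes exchanged, though RRN5 in both conditions and RRN10 untreated read further from 0.

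The shared subunits are part of more than 1 polymerase. RPB5, RPB8, RPB10 and RPC10 serve all 3 enzymes, and RPC19 serves polymerases I and III. All 4 that were tested untreated had means above 0, from 0.32 for RPB8 to 0.53 for RPB10, and none passed the test. In RPB10, RPC10 and RPC19 both arrays of untreated experiment 1 were above 0, the lowest at 0.59, while experiment 2 lay between -1.21 and 0.17. RPB8 behaved alike at smaller size, with 0.48, 0.92, 0.12 and -0.24. The positive means of this class thus came from 1 experiment. With 4NQO RPB8 gave closely similar arrays, at -0.32, -0.22, -0.48 and -0.07 and a mean of -0.27 that did not pass the test. That mean lay above the median of all features, -0.56, and RPB8 lay above the array median on 3 of the 4 arrays. RPC10 read 1.43, 0.77 and 3.61 on 3 4NQO arrays and had no value on the fourth, so it was not tested. RPB5 read -0.08 and 0.75 on the unswapped arrays of experiment 1 and -4.17 and -2.88 on their dye-swapped partners, a gap that follows the dyes.

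Of the polymerase II subunits, RPO21 is the largest and RPB2 the next in size, and together they form the active centre. RPO21 read 0.73, 2.02, -0.43 and 0.65 untreated, with a mean of 0.74 ± 0.90 that did not pass the test. It read -1.44 and -0.47 in 4NQO experiment 1 and had no value in experiment 2. RPB2 read -4.28, 1.14, 0.50 and 0.01 untreated, and its mean of -0.66 ± 1.29 came from the first of these arrays alone. Both of its 4NQO values, in experiment 1, were near 0.2, at 0.17 and 0.21. RPB11, which pairs with Rpb3 in the assembly platform, was above 0 on all 4 untreated arrays, at 0.66, 0.27, 0.35 and 0.15, with a mean of 0.36 ± 0.15 (adjusted p 0.968). With 4NQO it read 1.28, -0.22 and 6.26 and had no value on the fourth array, and that 6.26 has no dye-swapped partner. RPB4, a stalk subunit, read 0.03, 0.56, -0.80 and -1.14 untreated and 1.36, 2.33, 1.15 and -0.59 with 4NQO. Its 4NQO mean was 1.06 ± 1.10 (adjusted p 0.198), above 0 on 3 of 4 arrays. RPB9, which acts in start site selection and transcript cleavage, read 0.31, -1.01, -1.19 and -2.21 with 4NQO, and its mean of -1.03 ± 0.95 did not pass the test (adjusted p 0.206). On 3 untreated arrays RPB9 read 0.99, 0.28 and -0.46.

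TFIID, which binds core promoters, contributed 5 of the polymerase II factors. TAF1 is its scaffold. In untreated cells TAF1 read -0.62, -0.60, -0.23 and -0.06, and after 4NQO -1.40, -0.49, -2.34 and -3.53. All 8 ratios were below 0, those of 4NQO experiment 2 were lower than any other, and the smallest 4NQO shift lay within the untreated range. The 4NQO mean was -1.94 ± 1.41 (SD, n = 2; 95% interval -3.20 to -0.68, adjusted p 0.034), and the untreated mean was -0.38 ± 0.33 (adjusted p 0.968). Experiment 1 alone gave -0.94 and experiment 2 alone -2.94, each a single 4NQO value without spread. With the spread of the 4NQO condition alone the adjusted p was 0.0955, the same fit as with either untreated experiment left out. With dye-swapped arrays taken as already turned, the 4NQO value was 0.07, so its direction rests on the dye labels. TAF13, a histone-fold subunit, read 1.39, 0.07, 1.54 and -0.50 untreated and 0.80, -0.83, -1.94 and -1.23 with 4NQO. Its untreated mean was 0.63 ± 0.15 and its 4NQO mean -0.80 ± 1.11, and neither these nor their difference of -1.43 passed the test. TAF11, the histone-fold partner of TAF13, was below 0 on all 4 untreated arrays, from -0.54 to -0.15, and its 4NQO mean was -0.24 ± 0.57. TAF5 and TAF6, which TFIID shares with the coactivator SAGA, were not tested; TAF5 lay between -2.32 and -0.02 on 5 arrays and TAF6 between -1.79 and 0.21 on 5. On the unswapped array of 4NQO experiment 2 all 5 TAF genes were below that array's median, at a median of -1.79, while on the unswapped array of 4NQO experiment 1 it was 2 of 5.

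The remaining polymerase II factors showed no call in any test. BUR6, a subunit of the TATA-binding protein regulator NC2, read 0.38, 0.36, -0.58 and 0.25 untreated and 0.41, -2.31, 0.75 and 3.48 with 4NQO. Its 4NQO mean of 0.58 ± 2.17 (SD, n = 2) was less than its spread, and without experiment 2 it was -0.95. The TFIIA genes TOA1 and TOA2 had untreated means of -0.24 and 0.20. With 4NQO TOA1 read 0.91, 1.29 and 2.29 and TOA2 1.90 and 0.97 on the arrays that measured them. All were above 0, but neither gene could be tested. Both TOA2 values came from unswapped arrays, with no dye-swapped partner. In untreated experiment 1 TOA2 read 1.92 unswapped and -0.94 dye-swapped. The TFIIE genes TFA1 and TFA2 were below 0 on all 6 arrays that measured each of them, from -1.64 to -0.06. With 4NQO, where every array median was below 0, TFA2 lay above the array median on both of its arrays. TFA1 did so on 1 of 3. Of the TFIIF genes, TFG1 lay between -0.97 and -0.49 on 6 of 7 arrays and at 1.96 on the other, and TFG2 ranged from -3.11 to 0.79. The TFIIH genes were thinly measured: SSL2, the helicase gene, had 4 values from -1.66 to 3.33, and KIN28, the kinase gene, SSL1 and TFB6 had 6 each. TFB6 was below 0 on all 6 of its arrays, from -1.73 to -0.66. DST1, the gene of the elongation factor TFIIS, had an untreated mean of -0.41 ± 0.99 and 4NQO values of 0.65, -0.21 and -1.57.

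Of the 13 polymerase III genes 4 could be tested after 4NQO. These 4, TFC1, RPC53, TFC7 and RPC34, had means below 0, with a median of -1.17, where 1459 of 2194 features also lay below 0. Of the 4 only TFC1 was called, beside 19.5% of all features. Among the untested genes RPO31 and RET1 were above 0 on 2 of their 3 4NQO arrays, and 6 of 9 polymerase III subunits lay above the array median on the unswapped array of 4NQO experiment 2. TFC1 belongs to TFIIIC, which binds the internal promoters of transfer RNA genes. It read -1.63, -2.07, -1.47 and -0.44 untreated and -2.62, -2.09, -2.85 and -0.51 with 4NQO. All 8 ratios were below 0, and the 2 conditions overlapped. The -0.51 of the dye-swapped array in 4NQO experiment 2 lay above that array's median of -0.64. The 4NQO mean was -2.02 ± 0.48 (SD, n = 2; 95% interval -3.21 to -0.83, adjusted p 0.0231) and the untreated mean -1.40 ± 0.63 (unadjusted p 0.0235, adjusted p 0.695). The difference between conditions was -0.62, with an adjusted p of 0.765. TFC1 lost its call with array medians set to 0 (log2 ratio -1.56, adjusted p 0.0941). It also lost it with the spread of the 4NQO condition alone (adjusted p 0.0762), the same fit as with either untreated experiment left out. With only 4NQO experiment 2 the log2 ratio was -1.68 and with only experiment 1 it was -2.35, each a single value without spread. With dye-swapped arrays taken as already turned, TFC1 stood at -0.72 with 4NQO (adjusted p 0.414) and at -0.15 untreated.

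TFC1 had 2 spots, which differed widely in size and shared their sign on 5 of 6 arrays. One spot read -3.23, -2.99, -1.47 and 1.43 untreated and -4.80, -2.64 and -3.51 on 3 4NQO arrays. The other read -0.02, -1.16 and -2.30 on 3 untreated arrays and -0.44, -1.53, -2.19 and -0.51 with 4NQO. On the 6 arrays with both spots the median gap was 2.52 and the largest 4.36. In experiment 2 with 4NQO, the dye-swapped TFC1 value came from the second spot alone. That spot by itself gave a 4NQO value of -1.17 with an adjusted p of 0.138, an alternative chosen after seeing the data. The first spot, with no value on that array, could not be tested. Both spots read lower in sub1Δ on most arrays, and the call depended on their average. RPC53 also had 2 spots and read -0.35, -1.09, -1.54 and -3.09 with 4NQO (mean -1.52 ± 1.13, adjusted p 0.0781). Only 1 of its spots had a value on the last array, and that spot alone gave -1.99 with an adjusted p of 0.0169, also an alternative chosen after seeing the data. The 2 spots of RPC53 shared their sign on 2 of the 6 arrays that measured both, with a median gap of 0.58. Of the other genes with 2 spots, DST1, RPC10, RPC19 and RRN5, the median gap lay between 0.22 and 0.83 and the spots shared their sign on 4 of 6 to 7 of 7 arrays.

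**Figure D4:**
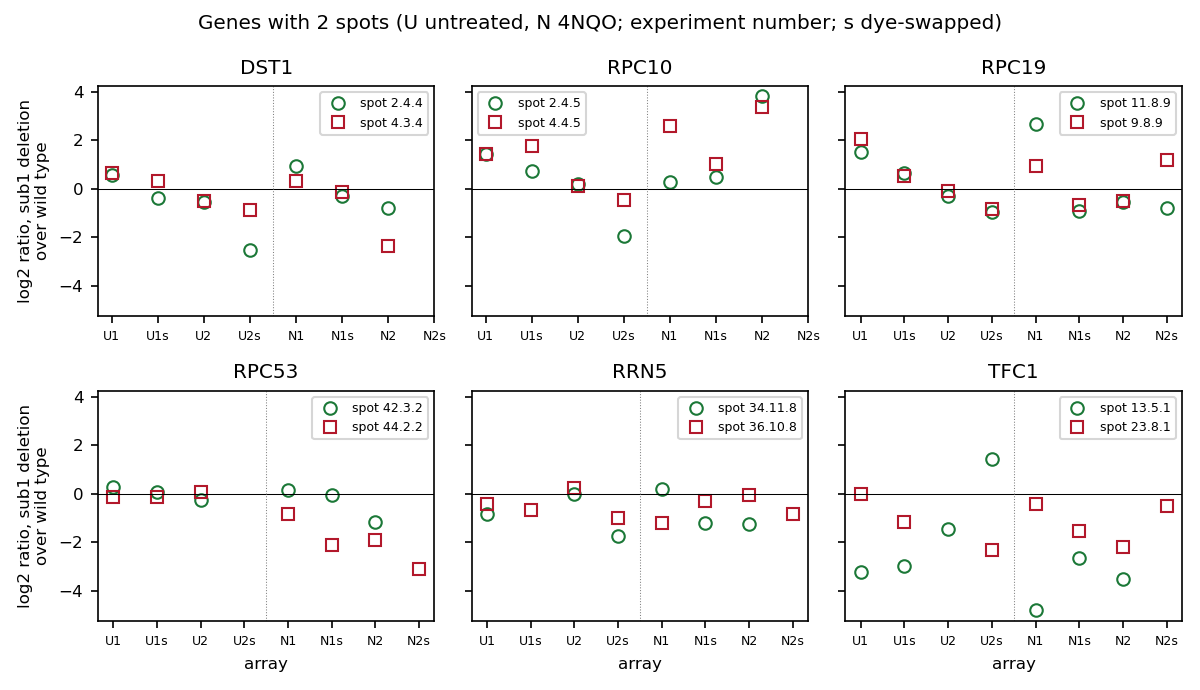
Log2 ratio of sub1Δ over wild type for the 6 machinery genes with 2 spots, 1 panel per gene and 1 marker per spot, on the 8 arrays. The 2 spots of RPC19 lie close together on most arrays with a median gap of 0.22, and those of TFC1 lie 2.52 apart at the median.

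RPO31 encodes the largest subunit of polymerase III. It read 1.85, -0.03, 0.37 and 0.32 untreated, with a mean of 0.63 ± 0.40 that did not pass the test, and 1.40, -0.59 and 0.13 with 4NQO. RET1, the next largest subunit, was untested, at 2.71, -0.07 and -0.36 on 3 untreated arrays and 3.04, 0.33 and -4.99 on 3 4NQO arrays. In RET1 and TFC7, each experiment with both arrays measured read higher on the unswapped one. TFC7, a TFIIIC subunit, read 3.46, 0.24 and -2.53 untreated and 3.95, -1.83, -0.89 and -4.54 with 4NQO. Its 4NQO mean of -0.83 ± 2.67 (adjusted p 0.401) was smaller than its spread. RPC34, which contacts TFIIIB, read 1.51, -0.53, 0.91 and -0.79 untreated and 0.03, -1.03, -0.36 and -1.51 with 4NQO (mean -0.72 ± 0.31, adjusted p 0.342). RPC31 and RPC37 had untreated means of 0.37 and -0.03. RPC11, RPC17 and RPC25 were tested in neither condition. RPC11 was above 0 on its 3 untreated arrays, from 0.54 to 0.92, and below 0 on its 3 4NQO arrays, the highest at -0.23. That value, on the unswapped array of 4NQO experiment 2, lay above the array's median of -0.52. The stalk genes RPC17 and RPC25 were below 0 on every array that measured them, from -2.28 to -0.28. RPC25 had values on unswapped arrays only, 1 untreated and 2 with 4NQO. Its -0.35 in 4NQO experiment 2 lay above that array's median of -0.52. Of the TFIIIB genes, BRF1 read -0.98, 1.55, -0.20 and -0.09 untreated and -0.50, -0.54 and -1.40 with 4NQO, and BDP1 lay between -0.85 and 0.42 on 6 arrays.

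Set side by side, polymerase subunits and initiation or elongation factors had different medians in both conditions, as a description with no test. Untreated, the 17 subunits tested had a median log2 ratio of 0.33, with 11 above 0, and the 15 factors a median of -0.37, with 5 above 0. With 4NQO, the 11 subunits tested had a median of 0.13, with 6 above 0, and the 9 factors a median of -0.80, with 1 above 0. The median of all features with 4NQO was -0.56, with 735 of 2194 above 0. Above that median lay 8 of the 11 subunits and 3 of the 9 factors. The gap was not even across arrays, and on 1 it was reversed: in 4NQO experiment 1 with the dyes exchanged, the median was -0.53 for 22 subunits and -0.44 for 20 factors. On the unswapped array of untreated experiment 1, over all genes with a value, the medians were 0.50 for 25 subunits and -0.61 for 26 factors. On the dye-swapped array of untreated experiment 2 they were -0.36 for 23 subunits and -0.41 for 20 factors, and on the same array of 4NQO experiment 2 they were -0.91 and -0.94.

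**Figure D5:**
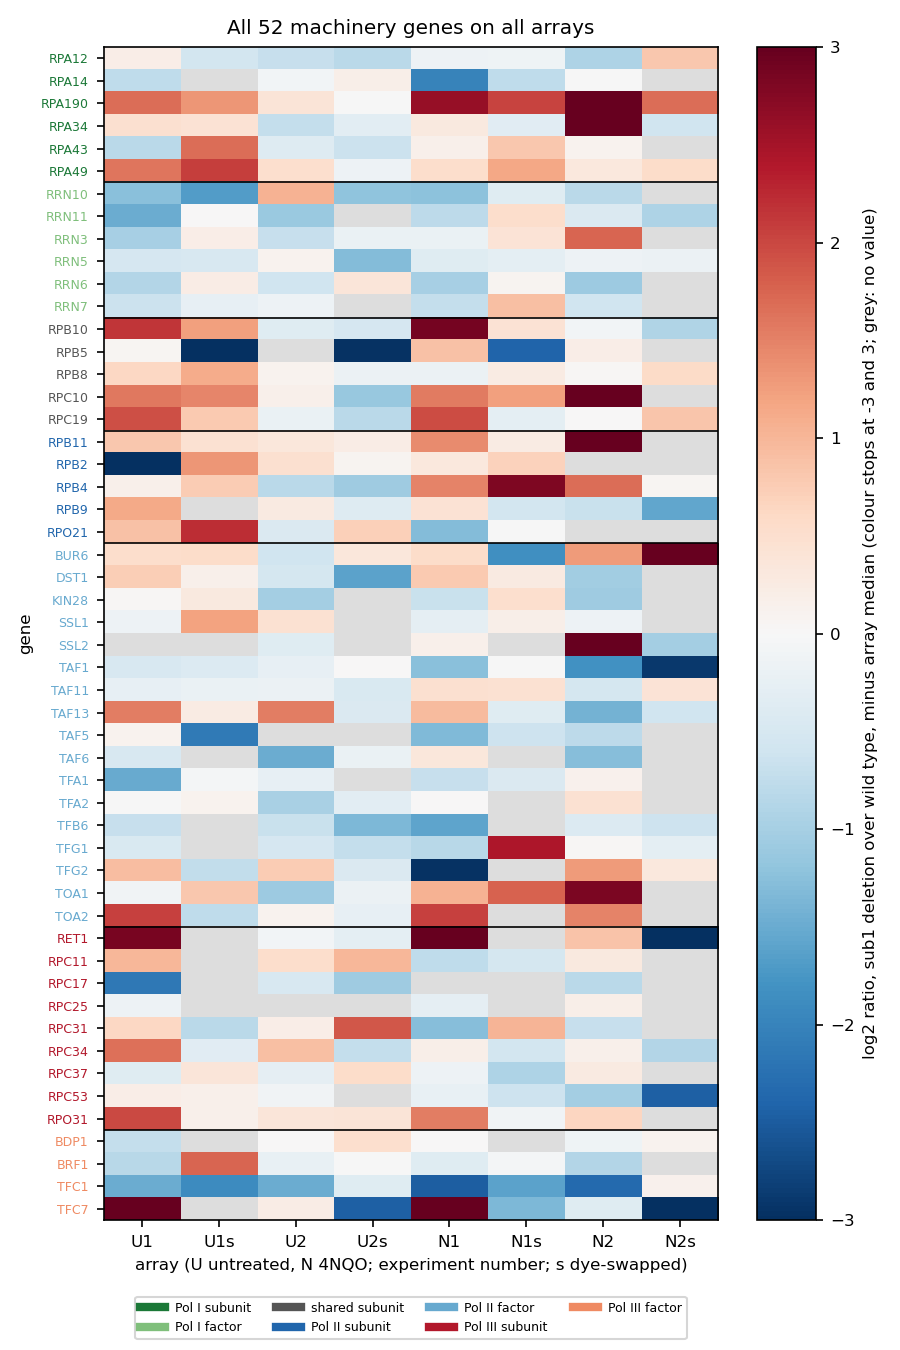
Log2 ratio of sub1Δ over wild type minus the array median for all 52 machinery genes (rows, grouped by class) on the 8 arrays (columns). Red is higher and blue lower in sub1Δ, grey is no value; the RPA190 row is red on 7 of the columns, the Rrn rows are blue in both unswapped experiment 1 columns, and grey is most frequent in the last column.

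Dye orientation moved with many single-gene values. The largest gaps between the 2 arrays of a dye swap were 5.78 for TFC7 in 4NQO experiment 1, 5.53 for RPA34 in 4NQO experiment 2 and -5.42 for RPB2 in untreated experiment 1, as unswapped minus dye-swapped. The median absolute gap of the machinery genes was 0.84 and 0.62 in untreated experiments 1 and 2 and 0.88 and 1.07 in 4NQO experiments 1 and 2, beside 0.80, 0.67, 1.06 and 1.20 for all features. Both arrays of a swap gave the same sign for 23 of 40, 25 of 42, 24 of 42 and 18 of 25 machinery genes in that order. Over all features that share was 61.5%, 56.4%, 62.8% and 71.8%. The part of dye orientation in any single value was not tested.

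A further 14 genes tied to this machinery but outside the symbol rule were listed, and 6 of them had a spot of their own. Of these 5 were tested untreated, where none was called, from -0.84 for UAF30, of the upstream activation factor, to 0.81 for HMO1, a high mobility group protein of ribosomal RNA and ribosomal protein genes. With 4NQO 2 were tested and none was called. NPA3, a GTPase that takes part in polymerase II assembly, had a mean of -0.69, and LHP1, the yeast La protein that binds new polymerase III transcripts, had a mean of -0.67. The median of all features was -0.56.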

How the data were processed

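The authors deposited, for each spot and array, the log2 ratio of Cy3 over Cy5. Per the series' design text they scanned with a GenePix instrument, subtracted the background and applied LOWESS with a smooth parameter of 0.33, and the submitters' processing notes name limma 2.12.0. Intensities were not used here. The sign was reversed on arrays whose Cy5 channel held the mutant, so every ratio is sub1Δ over wild type. Whether swaps were turned before deposit is not stated in the sources used.

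Spots of 1 gene were averaged, then the 2 arrays of a dye swap where both had a value. The 4 resulting means were fitted once in limma 3.58.1 under R 4.3.3, for each condition's mean and the difference, with 1 spread for both conditions (prior degrees of freedom 16.8). Features without both means in the other condition took their own spread from 1 condition. Tests were 2-sided and adjusted over all features by Benjamini-Hochberg at 0.05, with no minimum fold. The fit was tested on simulated data. Experiments are described only as independent. With n = 2 and 16.8 prior degrees of freedom, p-values rest mostly on spread pooled over all features. They rest little on the spread between a gene's own experiments. With 4NQO, RPA190 (SD 0.11) and TAF1 (SD 1.41) thus had standard errors of 0.57 and 0.60. The number of arrays, the spots without a value and the gaps between dye orientations limit precision.

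Names came from the platform annotation, for spots with 1 symbol (3344 of 6216, 387 having several and 2485 none). Updating symbols through the RefSeq table (R64) gave the same 52 genes. No build is given, so no coordinates are printed. The genes and lists were chosen with earlier results of these data known. Genes called and the 5 highest and 5 lowest per condition are given with all arrays. Alternatives changed centring, scale, spot blocks, dye-swap handling, direction, feature and spot choice, the replicate unit, the spread and left-out experiments.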

Additional observations from a re-analysis of the deposited data

Results flagged for a closer look

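In 2 of 52 groups of 4 arrays, 1 array stood apart from the others by Dixon's criterion. For independent values chance flags about 1 group in 20. The 2 arrays of a dye swap are not independent, so that rate need not hold here. BUR6, of the NC2 complex, read -0.58 on the unswapped array of untreated experiment 2, while the other 3 untreated arrays lay between 0.25 and 0.38. TFG1, of TFIIF, read 1.96 in 4NQO experiment 1 with the dyes exchanged, while the other 3 4NQO arrays lay between -0.97 and -0.50.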

How the results depend on the processing

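No machinery gene was called untreated or for the difference under any alternative run. For 4NQO, where 3 were called, the count was 1 with array medians set to 0, with arrays centred and scaled and with spot blocks centred, RPA190 each time. It was 0 where 1 array of a swap could stand alone, with swaps taken as already turned, on features of all 8 arrays, without the dye-swapped array of 4NQO experiment 2 and with the condition fitted alone. Leaving out either untreated experiment also gave 0, since it left the 4NQO means unchanged and gave the fit of the condition alone. Leaving out a 4NQO experiment left 1 value per gene with no spread between experiments, so calls of those fits are not counted. Of all features, untreated calls (1) became 0 with centring, 1 array standing alone or all 8 arrays required. They were also 0 with the sparse array left out or 4 arrays as separate values. They became 25 with scaling, 3 with blocks, 8 with the first or the last spot of a gene and 42 fitted alone. The 4NQO calls (428) became 212 with centring, 157 with scaling, 239 with 4 arrays as separate values, 94 fitted alone, and 0 with 1 array standing alone, swaps already turned, all 8 arrays required or that array left out (left-out experiments 94 to 426). Difference calls (0) became 2 with blocks (left-out experiments 0 to 53) and were 0 with experiment as a replicate block. The cause was not tested. Centring moved the median of all features to 0.12 untreated and -0.11 with 4NQO, and put 10 of 20 machinery genes above 0 in place of 7.

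Signs changed with swaps taken as already turned for RRN10 (0.70), RRN5 (0.38), RPA12 (0.26) and RPO21 (-0.59) untreated, and for TAF1 (0.071), RPC53 (0.57), RPB9 (0.59), RPA49 (-0.10) and BUR6 (-0.003) with 4NQO. They also changed for RPB2 without untreated experiment 1 (left-out experiments -1.57 to 0.25), RPA49 without 4NQO experiment 1 (-0.14 to 0.53), BUR6 (-0.95 to 2.116) and RPA34 (-0.33 to 1.53) without 4NQO experiment 2, and BUR6 (-0.10) without the sparse array. The planned description of promoter motifs was not run, since no promoter sequence was used here. With n = 2 experiments and up to 3234 spots without a value on 1 array, 15 of the 52 genes were tested in neither condition.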

Other observations

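Spots whose annotation names 2 genes were kept out of the 52 machinery genes and counted only among all features. Of these spots, 3 name a machinery gene. The spot annotated to RET1 and NOC2 read 1.02, 1.71, -0.37 and -0.51 on the 4 untreated arrays and 0.71, 0.46 and -1.88 on 3 4NQO arrays. It was above 0 in experiment 1 of each condition and below 0 in experiment 2. The spot annotated to TFC4, a TFIIIC subunit, and UFD1 read -3.02, -0.58, -0.52 and 0.10 untreated and -1.09 and -1.16 with 4NQO. The spot annotated to TAF6 and SLD3 read 1.52, -1.53, -0.30 and -0.12 untreated and 0.94, -1.52, -1.61 and -1.38 with 4NQO, and changed sign with dye orientation in experiment 1 of both conditions.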
